A study of Mus musculus with 32 samples.

Results

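The MiT/TFE transcription factors and their nutrient-sensing partners were examined as 10 genes in microglia of a mouse tau model. The 10 genes were listed by name: the 4 factors Mitf, Tfeb, Tfe3 and Tfec, the folliculin complex genes Flcn, Fnip1 and Fnip2, the Rag GTPase gene Rragd, and Mtor and Rptor of the mTORC1 kinase complex. All 10 were found among the 18588 genes of the deposited table. rTg4510 mice carry a tetracycline-responsive mutant human tau transgene and a transactivator transgene driven by the CaMKIIα promoter, so tau is made in forebrain neurons and not in the microglia that were profiled. WT littermates (strain label 129/FVB F1) carried neither transgene, so effects of tau, of the transactivator and of the transgene insertions cannot be told apart. All mice were female. Forebrains of 8 to 10 animals aged 2, 4, 6 or 8 months were pooled for each library, and CD11b-positive cells were pulled out with antibody-coupled magnetic beads. Of 32 libraries, the study kept 28, with 4 per genotype at 2- and 6-months of age and 3 per genotype at 4- and 8-months of age.

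MITF, TFEB, TFE3 and TFEC are related basic helix-loop-helix leucine zipper proteins that bind E-box DNA and switch on genes of lysosomes and autophagy, a set known as the CLEAR network. When amino acids are plentiful, Rag GTPases recruit mTORC1 and these factors to the lysosome surface, where the kinase phosphorylates the factors and keeps them in the cytoplasm. The folliculin complex activates RagC and RagD, which makes it a partner of this step. In macrophage lineages MITF and TFE3 are best known for driving osteoclast genes, while TFEB and TFE3 act in lysosome biogenesis and inflammatory responses. These controls act largely on the proteins, which were not measured here.

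Values are log2 gene signals, which the authors made by combining exon reads with a robust linear model and median normalizing. They are not scaled to gene length, so levels are compared between groups and never between genes. Differentially expressed genes (DEGs) needed a Benjamini-Hochberg adjusted p (FDR) under 0.05 over all 18588 genes and a change above 1.5 fold, in a limma linear model with the 8 group means. The median of all genes was 5.63 in each library, and the lowest value of a library lay between 1.23 and 1.92. In bulk RNA, fewer cells of a kind and less RNA per cell cannot be told apart.

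The libraries carried the markers of microglia. Linear signals of a cell type's markers were added in each library and given as log2, so the strongest markers weigh most. For 10 microglia markers this sum was 14.91 to 15.06 in rTg4510 and 15.05 to 15.29 in WT libraries at 2-months of age. At 4-months of age it was 14.82 to 14.88 against 14.96 to 15.18, at 6-months of age 14.77 to 14.98 against 15.10 to 15.25, and at 8-months of age 14.56 to 14.67 against 14.82 to 15.09. The rTg4510 libraries thus lay below the WT libraries at the 3 later ages. By FDR, 3, 5, 6 and 6 of these 10 markers were lower and 0, 2, 3 and 2 higher in rTg4510 at the 4 ages in order. Markers of other cells also moved with genotype. The 6 neutrophil markers summed to 7.31 to 10.3 in rTg4510 and 8.92 to 10.3 in WT, and all 6 were down-regulated DEGs at 6- and 8-months of age. The 7 astrocyte markers summed to 9.51 to 10.5 against 10.2 to 11.6, and 5 border macrophage markers to 9.87 to 10.6 against 10.2 to 11.03. The 7 oligodendrocyte markers summed to 7.45 to 9.81 against 7.46 to 10.8, the 6 endothelial markers to 6.94 to 8.64 against 6.90 to 8.77, and 3 of 8 neuron markers, the others not analysed here, to 3.92 to 6.11 against 4.37 to 7.79. The 4 T and NK cell markers that were measured summed to 5.67 to 7.39 against 4.75 to 6.60. Of these, Klrb1c was an up-regulated DEG at all 4 ages, and Nkg7 a down-regulated DEG at 6-months of age. The astrocyte markers held 2 and 3 down-regulated DEGs at 6 and 8 months, and 1 up-regulated DEG at each of these ages. Among endothelial markers, 1, 2 and 1 were down-regulated DEGs at 4, 6 and 8 months, and 1 was up-regulated at each. The ranges of these other cells are over all ages. Within ages, rTg4510 sums lay below all WT sums for astrocytes and neutrophils at 4, 6 and 8 months. They also did for border macrophages and neurons at 4 months and oligodendrocytes at 6 months. The T and NK cell sums lay above all WT sums at 4 and 6 months. At every other age the sums of these cells overlapped. The part of the microglia markers and of these cells in the results below was not tested. The table holds mouse genes, so the human transgene has no row of its own. Mouse Mapt lay between 3.51 and 5.41 in rTg4510 and between 4.14 and 6.77 in WT, and Prnp between 6.99 and 9.01 and between 6.51 and 9.76, so the ranges over all ages overlapped for both genes. Within ages, Mapt was a DEG at none, and Prnp was an up-regulated DEG at 6-months of age, by 1.19 on the log2 scale (limma FDR = 0.014).

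Of the 10 genes, Mitf, Fnip2 and Rragd were up-regulated DEGs at each of the 3 later ages, and 0 were down-regulated DEGs at any age. At 2-months of age 0 of the 10 were DEGs. Across all genes 1.58%, 9.47%, 11.3% and 10.5% were up-regulated and 0.403%, 4.33%, 8.54% and 5.37% down-regulated DEGs at the 4 ages in order, so 3 of 10 stood beside a background near 1 in 10. By FDR alone, 1, 5, 6 and 4 of the 10 differed at the 4 ages, against 6.03%, 23.2%, 34.1% and 25.7% of all genes. The genotype groups did not overlap for 1, 5, 6 and 4 of the 10, against 11%, 36.6%, 32.8% and 36.7% of all genes. The 10 genes were chosen with earlier results of these data known, so these counts are descriptions and were not tested as a set.

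**Figure D1:**
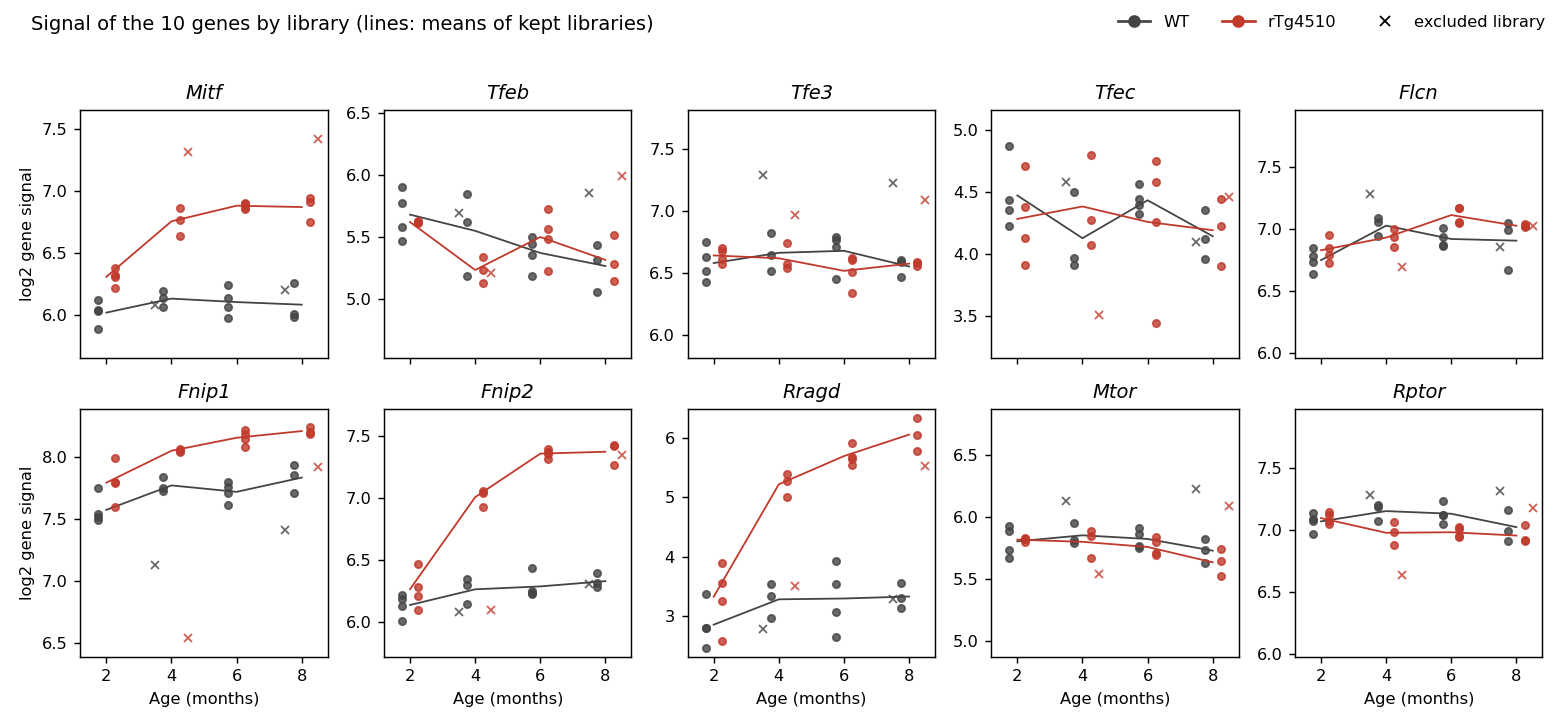
Log2 gene signal (y axis, own scale in each panel) of the 10 genes by age in months (x axis), with 1 point per library, lines through the group means of the kept libraries, and crosses for the 4 libraries the study excluded. In the kept libraries Mitf separates by genotype at every age, and Fnip1, Fnip2 and Rragd do so from 4-months of age. Tfeb, Tfe3, Tfec and Mtor overlap at every age.

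Upstream sequence is shown before the values of single genes, since the factors themselves bind CACGTG. RefSeq (GRCm38.p6) gave 15 windows for the 10 genes, each of 250 bases before and 50 bases after a transcript start. These are the only windows of Rragd (chr4:32982748-32983047, plus strand) and Fnip2 (chr3:79567630-79567929, minus strand), the members with the largest changes, and of Fnip1 (chr11:54437929-54438228, plus strand), the member whose window held the motif. All 3 are printed 5′ to 3′ with CACGTG in capitals.
Rragd: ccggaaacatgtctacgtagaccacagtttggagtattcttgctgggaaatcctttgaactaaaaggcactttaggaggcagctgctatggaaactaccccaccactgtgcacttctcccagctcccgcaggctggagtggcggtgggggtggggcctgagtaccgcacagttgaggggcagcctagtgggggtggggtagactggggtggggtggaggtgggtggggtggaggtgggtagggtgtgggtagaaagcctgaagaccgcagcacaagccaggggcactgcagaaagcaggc
Fnip2: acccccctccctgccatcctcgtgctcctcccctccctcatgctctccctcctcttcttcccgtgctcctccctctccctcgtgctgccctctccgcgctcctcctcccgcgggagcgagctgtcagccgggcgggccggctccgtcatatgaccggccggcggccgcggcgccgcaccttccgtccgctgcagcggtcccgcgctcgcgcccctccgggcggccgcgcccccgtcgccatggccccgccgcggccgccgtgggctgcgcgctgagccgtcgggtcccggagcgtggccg
Fnip1: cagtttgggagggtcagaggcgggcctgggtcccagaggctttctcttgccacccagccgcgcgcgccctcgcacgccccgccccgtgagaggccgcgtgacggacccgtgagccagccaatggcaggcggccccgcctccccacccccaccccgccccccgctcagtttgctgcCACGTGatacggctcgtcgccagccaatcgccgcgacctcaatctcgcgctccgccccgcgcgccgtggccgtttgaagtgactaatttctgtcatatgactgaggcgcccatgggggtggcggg
CACGTG is its own reverse complement, so a search of either strand finds the same matches. It was in 1 of the 15 windows, that of Fnip1, with its 5′ base 75 bases before the start used for that window, and in 7.15% of 32851 windows of all genes. The 5′ end of a gene in RefSeq can differ from the start used. It is 54438107 for Fnip1, inside the window, and 79568151 for Fnip2, outside its window. CATGTG, searched on both strands, was in 0 of the 15 and in 14.2% of all windows. 7 strings were searched in all, and these 2 were chosen for the text after the matches were seen. No test was made, and a window without a match says only that these letters are not in it.

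Mitf, which lies on chromosome 6 (GRCm38, 97807002 to 98021360, plus strand), encodes the founding member of the family. At 2-months of age the 4 rTg4510 libraries had log2 signals of 6.22 to 6.38 and the 4 WT libraries 5.89 to 6.13. At 4-months of age the rTg4510 libraries had 6.77, 6.64 and 6.86, and the WT libraries 6.14, 6.07 and 6.19. At 6-months of age they had 6.90, 6.89, 6.87 and 6.86 against 6.24, 6.13, 6.06 and 5.98, and at 8-months of age 6.75, 6.94 and 6.92 against 6.26, 6.01 and 5.99. Every rTg4510 library lay above every WT library of its age at all 4 ages. The difference was 0.29 ± 0.067 (SE) on the log2 scale at 2-months of age (limma FDR = 0.0097), which is 1.22 fold and below the DEG threshold. This FDR was 0.074 with only the 2-month libraries in the model and 0.050 with the replicate number as a block. At the 3 later ages the difference was 0.62, 0.78 and 0.79, or 1.54, 1.71 and 1.73 fold (limma FDR = 2.8e-06, 8.1e-09 and 9.3e-08). The 4-month value is just above 1.5 fold. It was 0.57 on the log2 scale, under that size, without rTg4510 replicate 4 of that age, and 0.56 with 10 added to each linear signal. The transcript starts of Mitf isoforms cannot be told apart in a gene-level signal.

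The other 3 factors did not pass the test at any age. Tfeb, best known for lysosome biogenesis, had group means between 5.23 and 5.68 over the 8 groups. Its difference at 4-months of age was -0.32 (95% interval -0.63 to -0.00046, FDR = 0.15), where WT libraries ranged from 5.18 to 5.84 and rTg4510 libraries from 5.12 to 5.34. Without WT replicate 2 of that age it was -0.50 (limma FDR = 0.020). At 6- and 8-months of age the Tfeb intervals were -0.14 to 0.40 and -0.27 to 0.36. Tfe3 had group means between 6.52 and 6.68, and its intervals at the 3 later ages were -0.24 to 0.16, -0.33 to 0.012 and -0.18 to 0.22. Without WT replicate 1 of 6 months, Tfe3 was lower in rTg4510 at that age by a log2 difference of -0.24 (limma FDR = 0.030). Tfec, a family member found mostly in macrophage lineages, was more variable between libraries, with group means of 4.12 to 4.47 and SDs of 0.10 to 0.58. Its intervals, -0.33 to 0.84, -0.68 to 0.33 and -0.53 to 0.63 at these ages, were too wide to exclude a 1.5-fold change.

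Among the folliculin complex genes, Fnip2 showed the larger change. FNIP1 and FNIP2 are alternative partners that hold folliculin in its active form and link it to the AMPK kinase. Fnip2 log2 signals overlapped at 2-months of age (6.09 to 6.47 in rTg4510 and 6.01 to 6.22 in WT). At 4-months of age the rTg4510 libraries had 6.93, 7.05 and 7.04 and the WT libraries 6.35, 6.14 and 6.30. At 6-months of age they had 7.35, 7.39, 7.31 and 7.37 against 6.44, 6.25, 6.23 and 6.24, and at 8-months of age 7.42, 7.43 and 7.27 against 6.31, 6.28 and 6.39. From 4-months of age the groups stood apart by more than their whole spread. The differences were 0.13, 0.74, 1.07 and 1.04 on the log2 scale at the 4 ages, or 1.09, 1.67, 2.10 and 2.06 fold (limma FDR = 0.38, 3.6e-07, 1.3e-10 and 3.5e-09). With the excluded libraries added, the 4-month difference was 0.56, under 1.5 fold.

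Fnip1 was higher in rTg4510 by FDR at the 3 later ages without reaching 1.5 fold. Its log2 signals at 6-months of age were 8.15, 8.22, 8.19 and 8.08 in rTg4510 and 7.80, 7.62, 7.71 and 7.76 in WT. The differences at the 4 ages were 0.22, 0.28, 0.44 and 0.37 (limma FDR = 0.065, 0.012, 3.1e-05 and 0.0010). The 4-month difference was 0.21 after quantile normalization (limma FDR = 0.065). Flcn itself differed by FDR only at 6-months of age, with 7.05 to 7.17 in rTg4510 and 6.86 to 7.01 in WT. That difference was 0.19, or 1.14 fold (limma FDR = 0.033), and it was called in 24 of 28 models that each left out 1 library, with the largest FDR, 0.089, without rTg4510 replicate 3 of that age. At the other ages its intervals were -0.062 to 0.22, -0.26 to 0.067 and -0.043 to 0.28.

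Rragd had the largest differences of the 10 genes at the 3 later ages. RagD pairs with RagA or RagB, and Rag dimers bring the MiT/TFE factors to the lysosome. At 2-months of age the rTg4510 libraries had log2 signals of 3.90, 3.26, 3.56 and 2.59 and the WT libraries 2.80, 2.47, 3.37 and 2.80. At 4-months of age they had 5.004, 5.27 and 5.38 against 2.97, 3.54 and 3.35. At 6-months of age they had 5.68, 5.91, 5.64 and 5.54 against 3.92, 3.54, 2.66 and 3.08, and at 8-months of age 6.04, 6.34 and 5.77 against 3.30, 3.56 and 3.14. The lowest rTg4510 library at these later ages was above the highest WT library of its age by more than the range within either group. The differences were 0.47, 1.93, 2.39 and 2.72 on the log2 scale, or 1.38, 3.81, 5.25 and 6.58 fold (limma FDR = 0.42, 6.1e-05, 3.2e-07 and 5.9e-07). WT signals lay only 0.89 to 2.11 above the lowest value of their library, so the size of the fold depends on how low values are treated. With 10 added to each linear signal, the log2 differences at the 3 later ages were 1.25, 1.62 and 1.93, each still with an FDR under 0.05.

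The mTORC1 genes changed little. Mtor, the kinase, had group means between 5.63 and 5.85, and its 4 intervals of the log2 difference lay between -0.25 and 0.15. Rptor, which encodes the substrate-binding subunit Raptor, had rTg4510 libraries below all WT libraries at 4-months of age (6.88 to 7.068 against 7.073 to 7.21) and at 6-months of age (6.95 to 7.03 against 7.05 to 7.24). Its differences of -0.17 and -0.15 were 0.89 and 0.90 fold (limma FDR = 0.045 and 0.036). These calls were fragile, since the FDR was 0.093 and 0.075 with moderated variances and they were kept in 14 and 23 of 28 models that each left out 1 library, with the largest FDR, 0.21 and 0.13, without rTg4510 replicate 2 of 4 months and WT replicate 4 of 6 months. Rptor shares 84 exonic bases (0.624%) with the opposite-strand gene Rptoros, and whether counting used strand is not stated. The other 9 genes share no exonic bases with another annotated gene.

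**Figure D2:**
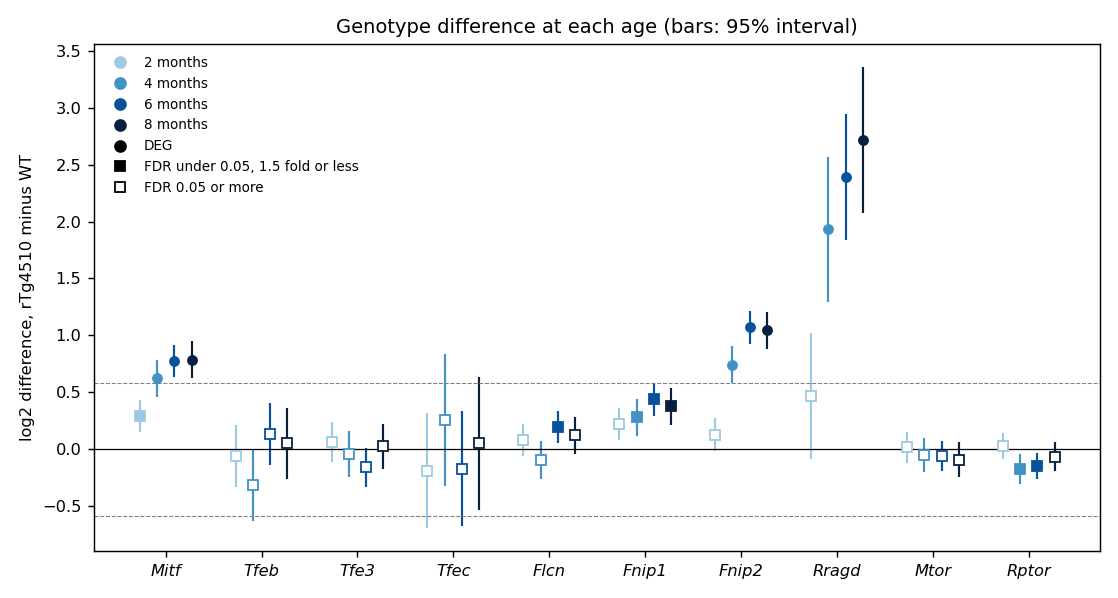
Log2 difference between rTg4510 and WT (y axis) for the 10 genes (x axis) at 4 ages, with bars for the 95% interval, filled circles for DEGs, filled squares for an FDR under 0.05 without a 1.5-fold change, and open squares otherwise. The dashed lines mark 1.5 fold, and Rragd reaches 2.72 while Mtor stays within -0.25 and 0.15 with its intervals.

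The growth of the differences with age was tested as the change of the genotype difference from 2-months of age. For Fnip2 the difference grew by 0.62, 0.94 and 0.92 on the log2 scale to 4, 6 and 8 months (limma FDR = 0.00086, 1.4e-06 and 7.6e-06). For Rragd it grew by 1.46, 1.92 and 2.25 (limma FDR = 0.031, 0.0012 and 0.0010). For Mitf it grew by 0.49 to 6 months and 0.50 to 8 months (limma FDR = 0.0012 and 0.0030), while the change of 0.33 to 4 months missed the threshold (FDR = 0.052) and passed it in 7 of 28 models that each left out 1 library. Those were the models without rTg4510 replicate 2 of 4 months or replicate 1 of 8 months, and without WT replicate 4 of 2 months, replicate 1 or 4 of 6 months, or replicate 1 or 3 of 8 months. The 3 comparisons share the 2-month libraries. By FDR, 5.26%, 8.46% and 6.65% of all genes had a difference that grew to 4, 6 and 8 months. The Rragd change to 4 months was lost in 7 of 28 models that each left out 1 library, with the largest FDR, 0.079, without WT replicate 1 of 4 months.

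Within rTg4510, which again shares its 2-month libraries, Mitf, Fnip1, Fnip2 and Rragd were higher by FDR at 4, 6 and 8 months than at 2 months, against 9.73%, 13.9% and 10.6% of all genes. The increases at 8 months were 0.56, 0.42, 1.11 and 2.72 on the log2 scale. Flcn was higher at 6 months by 0.28 (limma FDR = 0.0035). In WT, 0 of the 10 genes differed by FDR from 2 months at 4 or 6 months. At 8 months only Fnip1 did, by 0.26 (limma FDR = 0.050), a call that 4 of 28 models leaving out 1 library kept, with the largest FDR, 0.21, without WT replicate 2 of 8 months. The Fnip1 increase within rTg4510 from 2 to 4 months was kept in 24 of 28 such models, with the largest FDR, 0.079, without rTg4510 replicate 2 of 2 months. Of all genes in WT, 0.0861%, 1.15% and 4.21% were past the FDR threshold at 4, 6 and 8 months against 2 months.

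The order of the 8 group means was led in Mitf, Fnip1, Fnip2 and Rragd by the 3 older rTg4510 groups. In Mitf these were 6.88 ± 0.021 (SD, n = 4) at 6 months, 6.87 ± 0.10 (SD, n = 3) at 8 months and 6.76 ± 0.11 (SD, n = 3) at 4 months, which lie within their spread of each other. The next was rTg4510 at 2 months (6.31 ± 0.067, SD, n = 4), and the 4 WT groups followed from 6.13 to 6.02. In Fnip2 the 8- and 6-month rTg4510 groups (7.37 ± 0.092, n = 3, and 7.36 ± 0.033, n = 4, SD) lay above the 4-month group (7.01 ± 0.069, SD, n = 3). Rragd went from 6.05 ± 0.28 (SD, n = 3) at 8 months through 5.69 ± 0.16 (SD, n = 4) to 5.22 ± 0.19 (SD, n = 3), while rTg4510 at 2 months and the WT groups lay between 3.33 and 2.86. In Rptor the 3 older rTg4510 groups had the lowest means, 6.984 at 6 months, 6.979 at 4 months and 6.957 at 8 months. All 8 Rptor means lay within 0.197 of each other. For Tfeb, Tfe3, Tfec, Flcn and Mtor no such order stood out. In Mtor and Rptor the highest mean was that of WT at 4 months.

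Genes of the most similar pattern to the 3 DEGs were taken by Pearson r of the log2 signal over the 28 libraries, which differ in genotype and age, so r mostly describes the shared group pattern. For Mitf these were Tpd52 (r = 0.980), Cadm1 (0.971) and Axl (0.970), of which Axl encodes a receptor tyrosine kinase for the uptake of dying cells. For Fnip2 they were Soat1 (r = 0.978), an enzyme of cholesterol esterification, Vps13c (0.973) and Galc (0.971), a lysosomal galactosidase. For Rragd they were Ly9 (r = 0.957), Anxa5 (0.956) and Lyst (0.955), the regulator of lysosome size. Cadm1 and Axl were up-regulated DEGs at all 4 ages and Ly9 too, whereas Soat1, Vps13c and Galc, like Fnip2, were DEGs from 4-months of age only. Tpd52 and Anxa5 were also DEGs from 4-months of age only. Lyst was a DEG at 8-months of age only, with log2 differences of 0.31, 0.53 and 0.63 at the 3 later ages.

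The genes around the 10 were examined in 13 lists, with 145 measured genes. Of these, 1, 25, 32 and 31 were up-regulated DEGs at the 4 ages, and 0, 3, 3 and 3 were down-regulated DEGs. Across all genes these shares were 1.58%, 9.47%, 11.3% and 10.5% up-regulated and 0.403%, 4.33%, 8.54% and 5.37% down-regulated. The lists were drawn up with earlier results of these data known, so their counts are descriptions and were not tested as sets.

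Among CLEAR network genes of the lysosome, 14 of 24 were up-regulated DEGs at each of the 3 later ages, 1 was at 2 months, and 0 were down-regulated. The list median of the log2 difference was 0.16, 0.67, 0.70 and 0.69 at the 4 ages, against 0.014, -0.037, -0.035 and -0.014 over all genes. Cd63, a lysosomal membrane tetraspanin, was higher in rTg4510 than in WT by 0.63, 2.15, 2.48 and 2.41 on the log2 scale. Gla, α-galactosidase A, was higher by 2.16, 2.07 and 2.16 at the 3 later ages. Ctsb, the protease cathepsin B, was 2.75, 3.08 and 3.06 fold higher at 4, 6 and 8 months, and Glb1, β-galactosidase, 2.61, 2.19 and 1.91 fold. Of the vacuolar ATPase subunits, which acidify the lysosome, 4, 6 and 5 of 14 were up-regulated DEGs at these ages. Atp6v0c and Atp6v1a were 2.28 and 1.90 fold higher at 6 months, while Atp6v1b2 was 1.80 fold higher. Atp6v0d2, a subunit of osteoclasts and macrophages, was higher in rTg4510 by 1.57, 2.05 and 3.70 on the log2 scale at 4, 6 and 8 months.

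Of the 11 autophagy genes of the network, 2, 3 and 3 were up-regulated DEGs at the 3 later ages. They were Gabarap and Sqstm1, joined at 6 and 8 months by Map1lc3b. Gabarap and Map1lc3b encode proteins of the autophagosome membrane and Sqstm1 the cargo receptor p62, and their differences at 6 months were 1.21, 0.70 and 1.01 on the log2 scale. Both Map1lc3b calls were lost with all 32 libraries (limma FDR = 0.22 and 0.20). By FDR alone, 1, 3, 4 and 3 of the 11 were higher and 0, 2, 1 and 0 lower at the 4 ages. The list medians were 0.20, 0.29, 0.28 and -0.041, against 0.014, -0.037, -0.035 and -0.014 over all genes. Among 6 measured MITF targets of osteoclasts and macrophages, Gpnmb, Acp5 and Atp6v0d2 were up-regulated DEGs at the 3 later ages. Gpnmb, a glycoprotein of lysosome-rich macrophages, was higher in rTg4510 than in WT by 3.50, 4.23 and 5.45 on the log2 scale. Acp5, tartrate-resistant acid phosphatase, was higher by 1.65, 1.05 and 1.34. Without WT replicate 3 of 8 months, the Acp5 difference at that age was 0.90 (limma FDR = 0.062).

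The lists around mTORC1 differed in how many DEGs they held. Across all genes, 9.47%, 11.3% and 10.5% were up-regulated and 4.33%, 8.54% and 5.37% down-regulated DEGs at the 3 later ages. The 6 other core mTORC1 genes, the 8 genes of TSC and AKT inputs and the 16 genes that set where MiT/TFE proteins reside held 0 DEGs at any age. By FDR alone, at 6-months of age, 1 of 6, 3 of 8 and 8 of 16 of them differed, against 34.1% of all genes. Of 8 measured genes of the Rag GTPases and Ragulator, their lysosomal scaffold, 1, 2 and 2 were up-regulated DEGs at the 3 later ages. Rragc was 1.64 and 1.65 fold higher at 6 and 8 months. Lamtor2 was 1.59 fold higher at 4 and at 6 months, and Lamtor1 1.62 fold higher at 8 months. Of the 17 genes of the GATOR complexes, KICSTOR and amino acid sensors, Sesn1, a stress-induced member of the sestrin family of leucine sensors, was 0.64, 0.65 and 0.65 fold of WT at the 3 later ages. Its paralog Sesn3 was 0.65 fold at 4 months, Castor2 0.55 fold at 8 months and Castor1 1.59 fold at 6 months. Single libraries decided some of these calls at 1.5 fold or at the FDR threshold. Without WT replicate 1 of 8 months Lamtor1 was 1.46 fold and Castor2 had an FDR of 0.053, and without WT replicate 3 of 8 months Sesn1 was 0.68 fold. Without WT replicate 4 or rTg4510 replicate 1 of 4 months Sesn3 was 0.70 or 0.67 fold. After quantile normalization Sesn3 was 0.67 fold at 4 months, and its call was lost. With all 32 libraries the calls of Castor1 (limma FDR = 0.054), Castor2 (limma FDR = 0.19), Sesn1 at 4 months (0.69 fold) and Sesn3 (0.74 fold) were lost too.

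In the AMPK and LKB1 list of 10, the 2 β-subunit genes of AMPK went opposite ways. Compared with WT, Prkab1 was lower in rTg4510 by 0.80, 0.91 and 0.87 on the log2 scale at 4, 6 and 8 months. Prkab2 was higher by 0.72 and 1.06 at 6 and 8 months. Of 9 mTORC1 substrates, Eif4ebp1, the translation repressor 4E-BP1, was 2.13 and 1.94 fold higher at 6 and 8 months. Grb10 was a down-regulated DEG at 6 months only, by 2.48 on the log2 scale with an SE of 0.67. Of 4 mTORC2 subunit genes, Prr5l was 3.67, 3.27 and 3.39 fold higher at the 3 later ages. Among 15 other factors that bind CACGTG, Bhlhe40 was 3.31, 3.62 and 2.98 fold higher at these ages and Myc 1.55 fold higher at 8 months. The Myc call was lost without any of 4 libraries of that age, with FDRs of 0.050, 0.10 and 0.074 without rTg4510 replicates 1, 2 and 3 and 0.20 without WT replicate 3. Quantile normalization also lost the Myc call (limma FDR = 0.051).

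**Figure D3:**
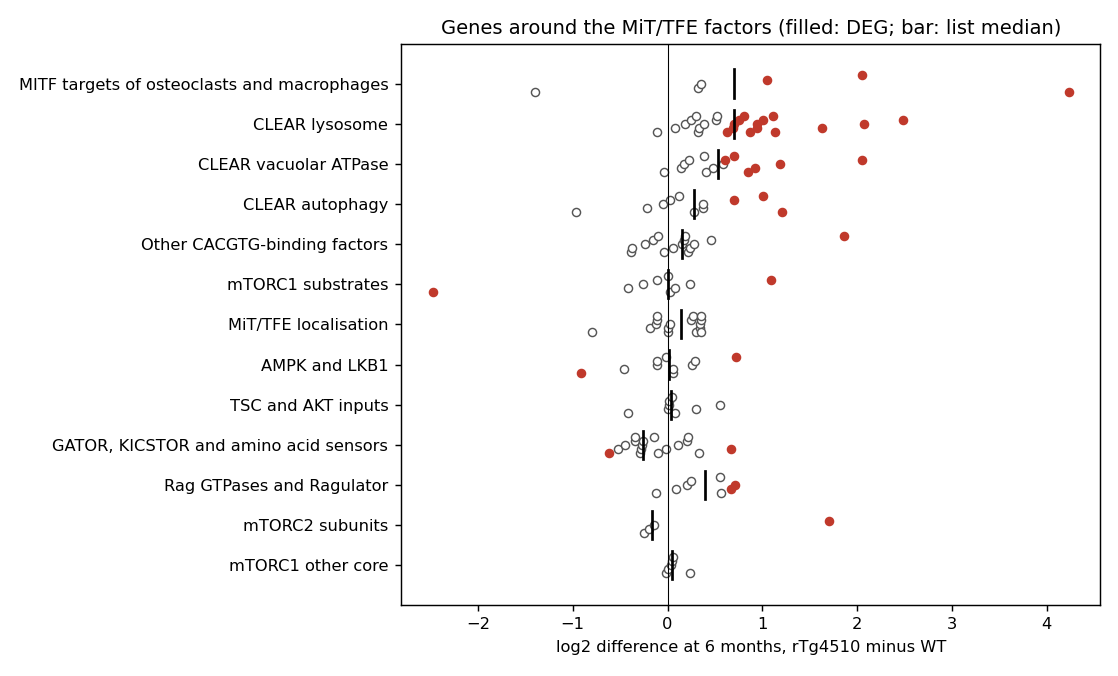
Log2 difference between rTg4510 and WT at 6-months of age (x axis) for the measured genes of 13 lists (rows), with filled points for DEGs, open points for other genes and a bar at each list's median. The CLEAR lysosome median is 0.70, and the lists of core mTORC1, TSC and AKT inputs and MiT/TFE localisation hold no filled point.

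The CACGTG motif was also counted in the RefSeq windows of these lists, with a gene counted if any of its windows held it. It was in 11 of 19 CLEAR lysosome genes with a window and 4 of 9 vacuolar ATPase genes, against 8.09% of 27025 genes. The network was itself described from this motif in lysosomal promoters, so these shares are not independent of how the list is known. Of the 11 lysosome genes with the motif, 7 were up-regulated DEGs at 4, 6 and 8 months, and of the 8 without it 5 were. The Rag and Ragulator list had it in 4 of 8 genes, the other CACGTG-binding factors in 6 of 12 and the other core mTORC1 genes in 2 of 5. The lists of TSC and AKT inputs, of MITF targets and of MiT/TFE localisation each had it in 1 gene (of 6, 6 and 12), and the other 5 lists in 0, the autophagy list with its 9 genes included. The stretches around the motif (capitals) in the named list genes that had it are shown with 10 bases on each side, 5′ to 3′, to set beside that of Fnip1.
Rragc: tgattccgggCACGTGatagtaccac
Lamtor1: gccttcctatCACGTGccgcgggtcc
Glb1: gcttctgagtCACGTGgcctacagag
Atp6v1a: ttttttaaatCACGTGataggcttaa
Gla, upstream match: agcgattgatCACGTGagcatctacg
Gla, downstream match: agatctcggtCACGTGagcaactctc
Gla held the motif at 2 places, and the 5′ base of the motif lay 48 to 227 bases before the start used for the window in these 5 genes. The positions in GRCm38.p6 are chr4:123917311-123917336 for Rragc, chr7:101905759-101905784 for Lamtor1, chr9:114401020-114401045 for Glb1, chr16:44139375-44139400 for Atp6v1a, chrX:134601217-134601242 for Gla (upstream match) and chrX:134601184-134601209 for Gla (downstream match).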

How the data were processed

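Groups and replicate numbers were taken from the labels, and the 28 kept libraries from the study's methods. RNA was amplified with the Ovation RNA-Seq System Version 2 kit. The deposited values are log2 gene signals: the authors added up a library's exon reads, dropped exons that had under 10 counts in more than 80% of samples, fitted a robust linear model across the exons of each gene and median normalized. Per the submitters' processing notes the build was GRCm38. The aligner, counter and annotation are not given in the sources used here. The table gives no read totals, so depth per library is unknown and the number of libraries limits the precision. Its 0 other columns left nothing unused.

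With limma 3.58.1 in R 4.3.3, each gene was fitted with 8 group means and unmoderated variances (20 residual degrees of freedom), and FDR was adjusted over 18588 genes within a contrast. Libraries are pools of animals, and nothing says whether pools shared a litter, so p-values measure the spread between these pools. Symbols came from RefSeq GRCm38.p6 (95.9% of Entrez numbers matched), promoter windows from its tables (Python 3.11.15), and shared exonic bases from GENCODE M21. On data simulated over 18588 genes with independent normal noise, 100 genes per contrast were changed by 1 on the log2 scale and 100 by 1.5. Of those changed by 1, 75%, 58%, 64% and 57% were called at 2, 4, 6 and 8 months, with 0 of the wrong sign. In the data more genes passed the FDR threshold at each age, so these shares do not give the sensitivity of the real contrasts.

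The members and gene lists were chosen with earlier results of these data known. All 10 members are named, and from each list at most 4 genes: DEGs at the most ages, then the largest mean difference. Similar patterns were ranked among named genes with a median signal of at least the table median, for members that were DEGs. Alternatives were moderated variances, only the groups compared, all 32 libraries, a replicate block, quantile normalization, a filter at the 25th percentile of mean signal, an offset of 10, and leaving out each library. Both genotypes carry the same replicate numbers, and the study does not say what a number marks. Pairing was checked by correlating deviations from group means across genes, in 2 versions, the second chosen after the first was seen. On plain deviations, the lowest and highest r of same-numbered libraries were, for ages 2, 4, 6 and 8 months in turn, 0.065 and 0.17, -0.10 and 0.12, 0.13 and 0.15, and 0.15 and 0.29. With each gene's deviations divided by its residual SD, they were 0.026 and 0.16, -0.11 and 0.095, 0.095 and 0.17, and 0.13 and 0.23. On plain deviations, differently numbered libraries had r of -0.19 to 0.082, -0.071 to 0.15, -0.13 to 0.091 and -0.26 to -0.028 at these ages. On divided deviations they had -0.13 to 0.089, -0.079 to 0.17, -0.13 to 0.070 and -0.15 to 0.0074. In both versions every same-numbered pair passed a threshold of 0.1 at 8 months, but not at 2 and 4 months. At 6 months this depends on the version. The threshold was a choice, so whether the libraries were paired is not settled by it.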

Additional observations from a re-analysis of the deposited data

Results flagged for a closer look

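Fnip2 in WT replicate 1 at 6-months of age, at a log2 signal of 6.44, stood apart from the other 3 libraries of its group. It was 1 of 40 groups tested, where chance sets about 1 in 20 apart. The genotype difference changed with age, by limma FDR, for Fnip2 by 0.62, 0.94 and 0.92 from 2 to 4, 6 and 8 months, for Rragd by 1.46, 1.92 and 2.25, and for Mitf by 0.49 and 0.50 from 2 to 6 and 8 months, all on the log2 scale.

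The libraries that the study excluded after QC enter the comparisons above only where excluded libraries or all 32 libraries are named. Mitf was 7.31 in the excluded rTg4510 library of 4 months and 7.42 in that of 8 months, above every kept library. In the excluded rTg4510 library of 8 months Tfeb was 5.99, Tfec 4.46, Fnip2 7.35 and Rragd 5.52, each above the kept and excluded WT libraries of that age. In the excluded rTg4510 library of 4 months Fnip2 was 6.10 and Rragd 3.50, within or near the WT range, so these 2 genes separated from WT in 1 of the 2 excluded rTg4510 libraries.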

How the results depend on the processing

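Mitf, Fnip2 and Rragd were the DEGs at 6 and 8 months under each alternative that tested them. At 4 months there were 2 in place of 3 without rTg4510 replicate 4 of that age and with the offset (Mitf lost), and with all 32 libraries (Fnip2 lost). Rragd and Tfec are not tested under the signal filter, which 8 of 10 genes pass. The count of members past the FDR threshold at 2 months was 0 in place of 1 with only the groups compared, with all 32 libraries and with the replicate block, and 1 to 2 on leaving out 1 library (Fnip1 joined without rTg4510 replicate 2 or WT replicate 1). At 6 months it was 3 in place of 6 with all 32 libraries. For the change from 2 to 4 months it was 1 in place of 2 with only the groups compared, 0 with all 32 libraries, and 1 to 3 on leaving out 1 library, with Mitf joining in 7 of 28 models. For WT at 8 against 2 months it was 0 in place of 1 with moderated variances, only the groups compared, all 32 libraries, the replicate block and the offset, and 0 to 1 on leaving out 1 library. The Fnip1 difference within rTg4510 from 2 to 4 months reversed to -0.12 with all 32 libraries. With all 32 libraries, 15 of 62 values of single members crossed the threshold, reversed from a call, or moved uncalled by more than the residual SD. The cause of these changes was not tested.

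With the replicate block, Mitf at 2 months had an FDR of 0.050 and Fnip1 in WT at 8 against 2 months 0.058, and no other call of a member changed. Over 544 values of single members under the alternatives, 502 counted as the same. For called values this meant the same direction and an FDR still under 0.05. For uncalled values it meant an FDR not under 0.05 and a move under the residual SD, whatever the sign. Another 35 were no longer past the threshold, 4 newly passed, 2 uncalled values moved by more than the residual SD and 1 reversed. Leaving out 1 library enters here only as the lowest and the highest difference of each value. Depth is unknown, so limits at low signal, as for Rragd in WT, cannot be given as counts.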
